A study of Homo sapiens with 36 samples.

Results

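RNA recovered with the m6A reader YTHDF2 was compared with input RNA in cells expressing a YTHDF3-ADAR fusion. The cells were HEK293T, an established line from human embryonic kidney. In RNA immunoprecipitation (RIP) a protein is pulled from lysate with an antibody and the RNA that comes with it is sequenced. The comparison used the 3 YTHDF2 RIP and the 3 input libraries of this line, taken by the names of their count columns, which are 6 of the 36 libraries in the series. The series has 12 groups of 3 libraries, namely input and YTHDF1, YTHDF2 and YTHDF3 RIP from lines with YTHDF1-ADAR, YTHDF2-ADAR or YTHDF3-ADAR. Every group, inputs included, had the fusion induced with doxycycline at 1 µg/mL for 24 h, so no library comes from cells without a fusion. The antibody was directed at the endogenous reader, and input was RNA from a fraction of the same lysate, in DMEM-grown cultures with serum. ADAR enzymes convert adenosine to inosine, so a reader fused to ADAR leaves edits on the RNA it binds. The sources used here do not give the promoter, whether the line is 1 clone, or which ADAR gene was fused, and the fusion's RNA can add reads to YTHDF3 and to ADAR family genes. The labels do not state that replicates were separate cultures, so the p-values measure only the spread between these libraries, which may be technical.

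N6-methyladenosine (m6A) is the most common internal mark of mRNA. It is placed by the METTL3 and METTL14 methyltransferase with its cofactors, removed by the demethylases FTO and ALKBH5, and read by proteins with a YTH domain, among them the cytoplasmic YTHDF1, YTHDF2 and YTHDF3. YTHDF2 is best known for recruiting the CCR4-NOT deadenylase to methylated mRNA and so speeding its decay. m6A is densest in long internal exons and near stop codons, and it is known to be sparse on messages of ribosomal proteins and other short housekeeping messages. No gene was deleted or depleted in these cells.

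The 3 YTHDF2 RIP libraries held 21712686 to 30739002 counts and the 3 inputs 29154476 to 35275041. Protein-coding genes took 91.2 to 91.5% of counts in the RIP and 75.9 to 79.1% in input, and long noncoding RNAs took 5.14 to 5.597% and 8.24 to 10.2%. Mitochondrially encoded mRNAs took 1.70 to 1.90% of RIP counts and 1.02 to 2.14% of input counts. Replicates of each group differed by more than sampling noise, and the Pearson correlation of log2 values across genes was lowest between RIP replicates 1 and 3 (0.954) and 0.975 to 0.990 for the other pairs. The HEK293T check list summed to 882 to 1026 CPM in input, CPM being counts scaled to library size and 870.0 to 990.1 in the RIP. Blood markers summed to 18.6 to 20.4 CPM in input and 9.09 to 14.1 in the RIP, with PTPRC, CD3E and HBB too low to test. The 4 hepatocyte markers were all too low to test, and fibroblast markers summed to 26.6 to 36.4 CPM in input and 45.6 to 51.7 in the RIP. The part of these shifts in the results was not tested. Libraries of the YTHDF1 RIP stood apart in composition, with 54.1 to 74.2% protein-coding counts in this line. They enter the shared estimate of the spread and the filter on low counts. Without them 5772 of 27001 genes tested were called, in place of the 6022 of 31849 given next.

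Counts were fitted with edgeR's quasi-likelihood test and p-values were adjusted by Benjamini-Hochberg over all genes tested. A gene is called where its adjusted p is below 0.05, and values are log2 of RIP over input with their standard error, on CPM scaled by trimmed mean of M-values (TMM). Of 60675 genes, 31849 passed the filter on low counts and 6022 of them (18.9%) were called, 2860 higher in the YTHDF2 RIP (8.98%) and 3162 lower (9.93%). The sizes were unequal, since 1620 genes were called at least 2-fold lower and 262 at least 2-fold higher. Without TMM, scaling each library only to its total count, the median of all genes rose from 0.00052 to 0.19 on the log2 scale and 5174 genes were called higher and 2122 lower. The share called higher among the called genes was therefore 47.5% with TMM and 70.9% with total counts. Scaled to the mitochondrially encoded mRNAs, the median was -0.18 and 715 genes were called, of which 2 were higher. No gene was called the opposite way under any of these scalings. In bulk RNA, fewer cells of a type and less RNA per cell cannot be told apart, and a RIP value is a share of the recovered RNA, not the fraction of a message that was bound.

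Single libraries mattered more for the genes that rose than for those that fell. Leaving out input replicate 3 left 3343 genes called, leaving out RIP replicate 3 left 3512, and leaving out input replicate 1 left 3871. The other 3 omissions left between 4443 and 5664. Of the 2860 genes called higher, 805 were called in every one of the 6 fits with a library left out, and of the 3162 called lower, 1793 were. Separation of the groups was also counted without a test, on CPM with the same TMM scaling. With 3 libraries per group, some genes separate by chance. All 3 RIP values lay above all 3 input values for 5684 genes (17.8%), and below them for 6321 (19.8%).

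Among the 9273 protein-coding genes with a mean log2 CPM of at least 4, 36.7% were called, 1998 higher (21.5%) and 1404 lower (15.1%). The median change was 0.10 over all 9273, 0.59 over those called higher and -0.83 over those called lower. Only 45 of the higher genes passed 2-fold, against 490 of the lower.

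The genes named next were taken from called protein-coding genes with a mean log2 CPM of at least 4 and separate groups. The 12 of them with the largest increase rose by 1.14 to 1.47. Highest was DDIT4 (chr10:72273924-72276036 of GRCh38), an inhibitor of mTORC1 signalling that is induced by stress. Its CPM was 206, 211 and 131 in input replicates 1 to 3 and 675, 438 and 408 in RIP replicates 1 to 3, a change of 1.47 ± 0.32 (adjusted p = 0.00132). Every RIP value lay well above every input value, and RIP replicate 1 was the highest of the 6. An overlapping gene covers 41.2% of the DDIT4 exons, and counting without strand cannot separate their reads.

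F11R, the junctional adhesion molecule A of tight junctions, had 53.8, 52.3 and 49.9 CPM in input and 101, 116 and 142 in the RIP (1.20 ± 0.14, adjusted p = 1.08e-07). Its groups were far apart for the spread within them, although 36.6% of its exons are shared with an overlapping gene. MIEF2 (chr17:18260597-18266552), an outer mitochondrial membrane protein that recruits the fission factor DRP1, had 15.2, 15.5 and 13.5 CPM in input and 33.1, 33.4 and 34.2 in the RIP (1.19 ± 0.15, adjusted p = 5.86e-07). All 3 RIP values of MIEF2 lay within about 1 CPM of each other. MRFAP1, a small nuclear protein that binds the chromatin factor MORF4L1, had 363, 309 and 319 CPM in input and 550.2, 845 and 1094 in the RIP (1.33 ± 0.27, adjusted p = 0.000558). Its RIP values spread widely, with replicate 1 lowest and replicate 3 highest.

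SNX8, a sorting nexin of endosomes, had 13.7, 15.7 and 15.9 CPM in input and 31.8, 37.3 and 39.9 in the RIP, a change of 1.27 ± 0.20. SLC18B1, a vesicular polyamine transporter, rose by 1.17 from 47.3, 45.3 and 45.4 to 84.5, 94.2 and 132 CPM. The remaining genes were the zinc finger genes ZNF778 (1.20) and ZNF316 (1.14), the large scaffold protein AHNAK2 (1.20), the lipid-binding SEC14L1 (1.16), the presynaptic RIMS3 (1.16) and the small GTPase DIRAS1 (1.15). Of the 12, 11 stayed called with each library left out in turn. AHNAK2 did not, with 1.00 and adjusted p = 0.065 without input replicate 3. None of the 12 passed the test with scaling to mitochondrial mRNAs.

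**Figure D1:**
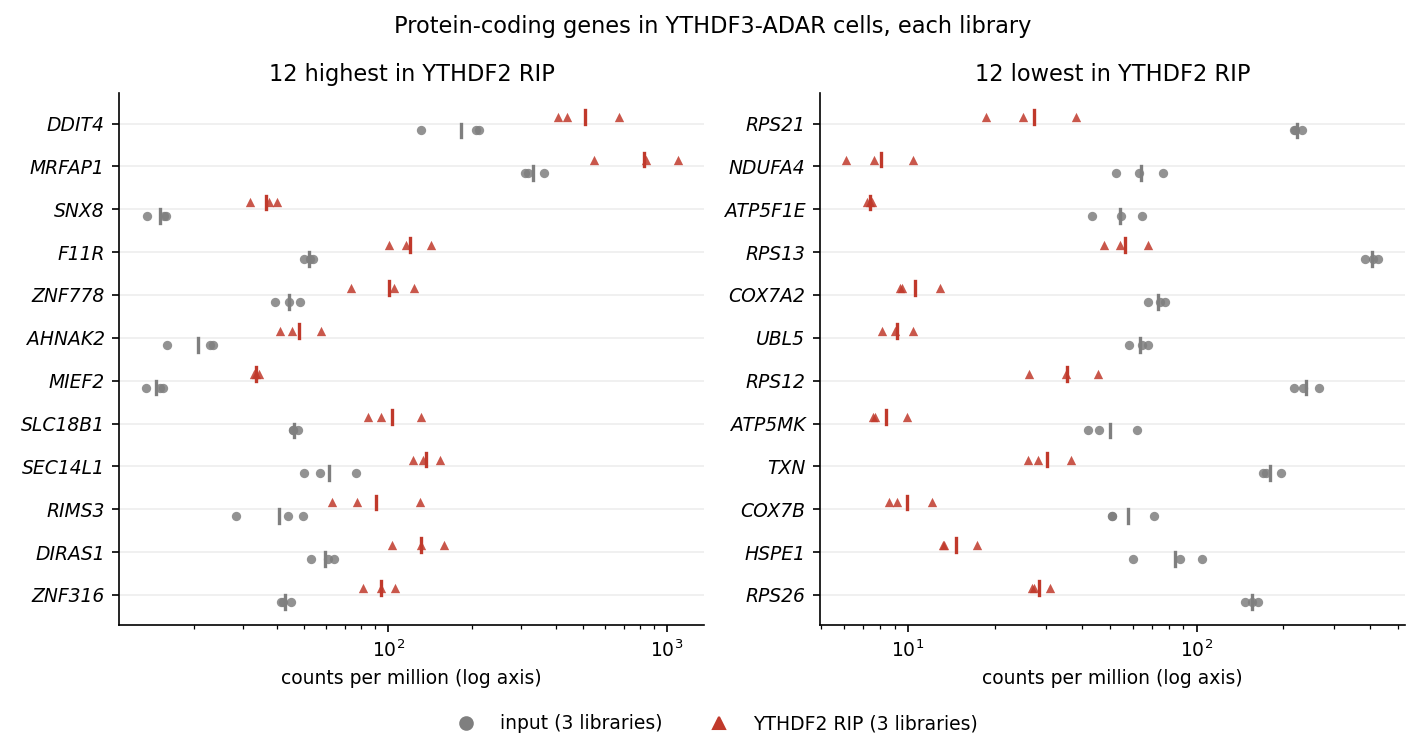
TMM-scaled CPM on a log axis for the 12 protein-coding genes with the largest increase and the 12 with the largest decrease. They were taken from called genes with a mean log2 CPM of at least 4 and separate groups. Each point is 1 library of the 3 inputs and the 3 YTHDF2 RIP libraries of YTHDF3-ADAR cells, with a short line at each mean. The points of the groups do not overlap for any of the 24 genes, and the gap is wider for the genes that fell, such as RPS21, than for those that rose.

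Among called genes within the same limits on CPM and overlap, the 12 protein-coding genes with the largest decrease fell by 2.45 to 3.03. Each stayed called with every library left out and under both other scalings. Messages for small ribosomal subunit proteins were 4 of the 12, messages for respiratory chain and ATP synthase subunits were 5, and the rest coded for a ubiquitin-like protein, a thioredoxin and a mitochondrial chaperonin. RPS21 (chr20:62387103-62388520) had 219.8, 232 and 217 CPM in input and 38.4, 25.0 and 18.6 in the RIP, a change of -3.03 ± 0.24 (adjusted p = 6.73e-11). By that fitted change, the input level of RPS21 was 8.14 times its RIP level.

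RPS13 had 409.7, 383 and 426 CPM in input and 67.9, 54.2 and 47.7 in the RIP (-2.84 ± 0.21). RPS12 changed by -2.74 and RPS26 by -2.45. ATP5F1E, the epsilon subunit of ATP synthase, had 54.8, 43.4 and 64.9 CPM in input and 7.53, 7.38 and 7.24 in the RIP, a change of -2.88 ± 0.19 (adjusted p = 1.02e-12). Its RIP values were nearly equal, and all lay far below its lowest input. NDUFA4 (-2.99), COX7A2 (-2.79) and COX7B (-2.53), associated with cytochrome oxidase, and ATP5MK (-2.58), of ATP synthase, fell alongside. TXN, the cytosolic thioredoxin, had 174, 169.9 and 196 CPM in input and 36.8, 28.2 and 26.1 in the RIP (-2.56 ± 0.20). UBL5, a ubiquitin-like protein that takes part in splicing, fell by 2.79 and HSPE1, the co-chaperonin of mitochondrial HSP60, by 2.52. Reads of ribosomal protein genes can also map to their processed pseudogenes, so single values of that family are uncertain.

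The deepest losses were of small structured RNAs. RN7SL1 and RN7SL2 are the functional genes of 7SL, the RNA scaffold of the signal recognition particle. RN7SL2 (chr14:49862550-49862849) had 36541, 27905 and 35248 CPM in input and 391, 318 and 325 in the RIP, a change of -6.59 ± 0.65 (adjusted p = 4.84e-08). RN7SL1 had 35151, 28847 and 35611 CPM in input and 476, 405 and 431 in the RIP (-6.25 ± 0.59). Near-identical copies share reads, and the annotated copies RN7SL5P (-7.20), RN7SL4P (-7.03) and RN7SL3 (-6.50) gave like values that are not separate measurements. RN7SK, the RNA that holds the elongation factor P-TEFb inactive, had 7875, 7417 and 7573 CPM in input and 1963, 1786 and 1580.3 in the RIP (-2.10 ± 0.51, adjusted p = 0.00417). RN7SK therefore kept a larger share of its input level than 7SL did, although no test compared them. The list of small structured RNAs had 1041 of 3395 members tested, with a median of -0.44. Of those tested, 119 were lower (11.4%) and 4 higher (0.384%), beside 9.93% and 8.98% of all genes. Only 33 had a mean log2 CPM of at least 4. The summed level of all tested members was 105149 to 122585 CPM in input and 4247 to 5005 in the RIP.

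Within the same limits on CPM and overlap, the called genes of other biotypes with the largest increase were 3 mitochondrial tRNAs and an antisense RNA. MT-TG, the glycine tRNA, had 76.9, 47.3 and 106 CPM in input and 155, 203 and 183 in the RIP (1.23 ± 0.38, adjusted p = 0.0222). MT-TH (1.13) and MT-TL2 (1.11) were close to it. The calls of these tRNAs were lost in 4 or 5 of the 6 fits with a library left out, and in a fit with the replicate number as a block MT-TH had adjusted p = 0.0514. SLC9A3-AS1, annotated antisense to the sodium-proton exchanger gene SLC9A3, had 10.4, 11.7 and 13.4 CPM in input and 30.0, 23.3 and 24.9 in the RIP (1.15 ± 0.26). None of the 13 mitochondrially encoded mRNAs was called in either direction, with a median of 0.08 whose sign changed when input replicate 1, input replicate 2 or RIP replicate 3 was left out.

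The 5 genes of highest mean CPM among those called higher were ADARB1, PRKDC, HNRNPA1, PRPF8 and HUWE1. PRKDC, the catalytic subunit of DNA-dependent protein kinase, had 1469.6, 1416 and 1356 CPM in input and 2495, 2404 and 2796 in the RIP (0.86 ± 0.18). HUWE1, a giant ubiquitin ligase, had 943, 1060.2 and 899 CPM in input and 1577, 1619 and 1720.5 in the RIP (0.76 ± 0.16). ADARB1, the gene of the editing enzyme ADAR2, had 2150.5, 2082 and 2038 CPM in input and 3471, 3345 and 3067 in the RIP (0.66 ± 0.19, adjusted p = 0.0132). Reads of ADARB1 from the endogenous gene and from a fusion transcript, were one to carry that sequence, cannot be told apart. The calls of ADARB1, the splicing protein HNRNPA1 (0.67) and the spliceosome core protein PRPF8 (0.60) were each lost in 3 to 5 of the fits with a library left out.

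Messages of the protein synthesis and energy machinery fell in large numbers. Of 87 cytosolic ribosomal protein genes tested, 75 were lower (86.2%) and none was higher, with a median of -1.34. For this and the next lists, the share lower was 9.93% over all genes and 15.1% over abundant protein-coding genes. RPL34 had 239, 235 and 249 CPM in input and 58.3, 43.1 and 43.1 in the RIP (-2.32 ± 0.19). The 12 members that were not called were mostly lower as well, with RPL3 at 0.23 the highest of the list. The summed level of the list was 47480 to 50664 CPM in input and 18035 to 27832 in the RIP. Between 60 and 79 members were called lower with a library left out, and 56 with scaling to mitochondrial mRNAs.

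Nuclear genes of oxidative phosphorylation fell in a like share, with 63 of 81 lower (77.8%), 4 higher (4.94%) and a median of -1.30. COX6C had 37.1, 37.8 and 40.5 CPM in input and 6.84, 5.06 and 4.81 in the RIP (-2.78 ± 0.21), and NDUFA2, a complex I subunit, had 30.3, 25.1 and 35.8 CPM in input and 6.60, 5.03 and 5.10 in the RIP (-2.44 ± 0.19). Not all members fell. ATP5F1A, the alpha subunit of ATP synthase, had 379, 367 and 364 CPM in input and 570.3, 635 and 755 in the RIP (0.82 ± 0.19), and SDHA, the flavoprotein of succinate dehydrogenase, had 173, 179.5 and 152 CPM in input and 240.2, 230.1 and 260.1 in the RIP (0.53 ± 0.15). NDUFS1, a core subunit of complex I, rose by 0.52. The call of SDHA was lost in 3 fits with a library left out, and between 1 and 6 members of the list were higher across those fits.

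Mitochondrial ribosomal proteins had 50 of 78 members lower (64.1%) and 1 higher (1.28%), with a median of -0.70. MRPL13 had 20.2, 21.2 and 23.7 CPM in input and 4.72, 4.54 and 4.86 in the RIP (-2.20 ± 0.19), with no overlap. MRPL14 rose by 0.48, a call at adjusted p = 0.0488 that was lost in 5 fits with a library left out and with the replicate block (adjusted p = 0.0545). Scaled to mitochondrial mRNAs, 14 of the 78 were lower.

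Proteasome subunits were mixed, with 14 of 35 lower (40%), 2 higher (5.71%) and a median of -0.43. Over abundant protein-coding genes the shares were 15.1% and 21.5%. The members that fell furthest were core particle subunits, among them PSMB3 with 92.5, 104 and 84.8 CPM in input and 31.8, 29.0 and 24.1 in the RIP (-1.73 ± 0.26), PSMA3 (-1.42) and PSMB4 (-1.25). PSMD2, a large scaffold subunit of the regulatory particle, rose from 192, 193 and 172 to 263, 388 and 532 CPM (1.08 ± 0.20).

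Replication-dependent histone messages end in a stem-loop in place of a poly(A) tail. Of 56 members tested, 28 were lower (50%) and none was higher, with a median of -1.07. H2AC20 had 248, 261 and 212 CPM in input and 77.3, 72.3 and 59.9 in the RIP (-1.78 ± 0.28). Histone genes are near-copies of each other, so their single values are uncertain, and between 15 and 24 were called lower with a library left out, fewest without RIP replicate 3. Host genes of small nucleolar RNAs had 22 of 30 members lower (73.3%) and none higher, with a median of -1.01. Between 14 and 21 were lower with a library left out. Over all genes 9.93% were lower. SNHG5 had 159.8, 129 and 140.2 CPM in input and 49.6, 41.6 and 27.7 in the RIP (-1.85 ± 0.21), and SNHG29 had 395, 408 and 389.6 CPM in input and 205, 153 and 112 in the RIP (-1.34 ± 0.19).

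The list of genes of the ER translocon, TRAP complex and TMED cargo receptors had a median of -0.31. Of its 34 members, 13 were lower (38.2%) and 4 higher (11.8%), beside 15.1% and 21.5% of abundant protein-coding genes. Small subunits such as OST4 fell, with 46.3, 47.3 and 52.9 CPM in input and 7.67, 9.08 and 10.2 in the RIP (-2.44 ± 0.22) for OST4 and a change of -2.19 for SEC61G, while the channel-forming SEC61A1 rose from 257, 243 and 259 to 353, 417 and 491 CPM (0.73 ± 0.15). Translation initiation factors had 12 of 54 lower (22.2%) and 6 higher (11.1%), beside 15.1% and 21.5% of abundant protein-coding genes. Their median was -0.19, which was 0.01 with total-count scaling, where 8 were lower and 12 higher. With a library left out 8 to 13 were lower and 1 to 7 higher, fewest higher without input replicate 2. EIF3E changed by -1.42 and EIF4E, the cap-binding protein, fell from 90.1, 83.8 and 104 to 44.7, 54.9 and 56.9 CPM (-0.83 ± 0.16), while EIF3B rose from 377, 397 and 329 to 498, 649 and 808 CPM (0.82 ± 0.19).

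Genes often used as controls poor in m6A had 8 of 15 members lower (53.3%), 1 higher (6.67%) and a median of -0.57. Of abundant protein-coding genes, 15.1% were lower and 21.5% higher. GAPDH, the glycolytic enzyme, had 1334, 1429.6 and 1289.6 CPM in input and 595, 621 and 513 in the RIP (-1.23 ± 0.25, adjusted p = 0.000589). HPRT1, of purine salvage, had 107, 101.9 and 112 CPM in input and 64.5, 61.6 and 61.7 in the RIP (-0.77 ± 0.20, adjusted p = 0.00541), and RPL30 had 177, 123 and 158 CPM in input and 68.6, 59.9 and 52.9 in the RIP (-1.34 ± 0.21). None of these groups overlapped. ACTB, cytoskeletal actin, had 1419, 1508 and 1419 CPM in input and 746, 1172 and 1183 in the RIP, and did not pass the test (-0.49 ± 0.22, adjusted p = 0.131), with RIP replicate 1 far below replicates 2 and 3.

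**Figure D2:**
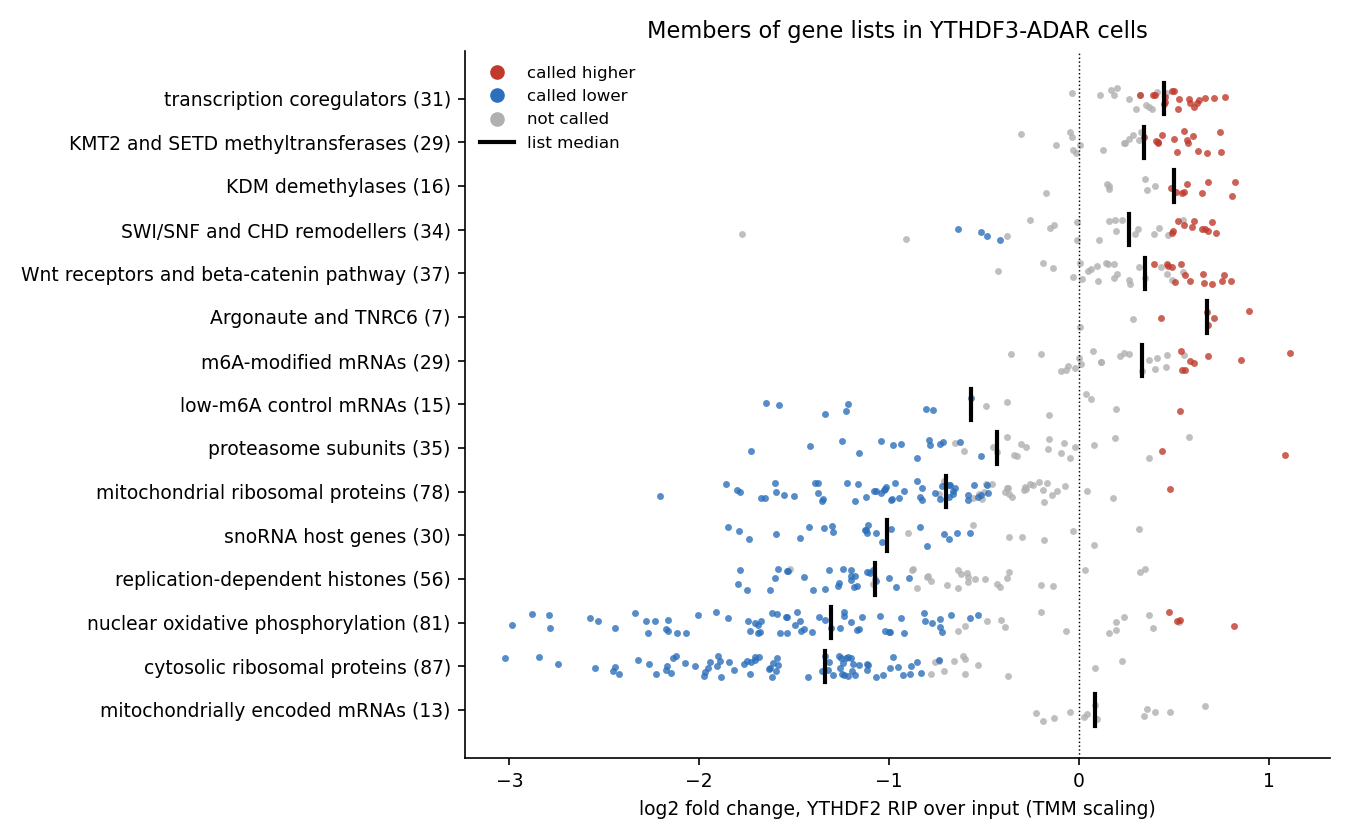
Log2 of YTHDF2 RIP over input for the members of selected gene lists in YTHDF3-ADAR cells, 1 point per gene tested, with called genes coloured and the median of each list drawn as a bar. Cytosolic ribosomal protein genes centre on -1.34 and genes of oxidative phosphorylation on -1.30, while transcription coregulators centre on 0.45 and hardly any member of that list lies below 0.

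Many genes of chromatin and transcription control rose, by small steps. Of 31 transcription coregulators, 18 were higher (58.1%) and none was lower, with a median of 0.45. Over abundant protein-coding genes, 21.5% were higher and 15.1% lower. All but 1 member had a value above 0, the exception being the acetyl-lysine reader BRD2 at -0.04. TRRAP, a scaffold of histone acetyltransferase complexes, had 278, 303 and 279.7 CPM in input and 451, 482 and 532 in the RIP (0.77 ± 0.14). MED12, of the Mediator kinase module, had 79.9, 80.5 and 70.6 CPM in input and 135, 118 and 114 in the RIP (0.67 ± 0.14). CREBBP, the histone acetyltransferase CBP, had 141, 144 and 156 CPM in input and 182, 229 and 252 in the RIP (0.59 ± 0.18, adjusted p = 0.0175), a call lost in 5 of 6 fits with a library left out.

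Histone lysine methyltransferases of the KMT2 and SETD families had 15 of 29 members higher (51.7%) and none lower, with a median of 0.35. The share higher was 21.5% over abundant protein-coding genes. NSD1, a methyltransferase of histone H3 lysine 36, had 305, 338 and 319 CPM in input and 452, 548 and 609 in the RIP (0.74 ± 0.15), and KMT2C had 201, 205 and 227 CPM in input and 297, 311 and 372 in the RIP (0.63 ± 0.14). KMT2D rose by 0.75, while the Polycomb methyltransferase EZH2 had -0.30 and was not called. Histone demethylases had 9 of 16 members higher (56.25%) and none lower, with a median of 0.50. KDM5A had 129, 121 and 94.7 CPM in input and 176, 202 and 225 in the RIP (0.81 ± 0.14), and KDM4A, whose exons are overlapped for 48.6% of their length, had 105, 111 and 98.2 CPM in input and 175, 181 and 201 in the RIP (0.83 ± 0.12).

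SWI/SNF and CHD remodellers had 11 of 34 members higher (32.4%), 4 lower (11.8%) and a median of 0.26, beside 21.5% and 15.1% of abundant protein-coding genes. CHD7, a helicase of enhancers, had 96.9, 105 and 97.2 CPM in input and 136, 161 and 183 in the RIP (0.68 ± 0.16). The small subunit ACTL6A fell from 30.1, 25.9 and 33.7 to 16.9, 19.6 and 21.1 CPM (-0.64 ± 0.18), a call lost without input replicate 3.

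Wnt receptors and components of the beta-catenin pathway had 14 of 37 members higher (37.8%) and none lower, with a median of 0.35. Over abundant protein-coding genes the share higher was 21.5%. The co-receptor LRP6 had 102.3, 96.6 and 98.3 CPM in input and 158, 161 and 186 in the RIP (0.76 ± 0.12), and the receptor FZD7 had 37.4, 40.2 and 32.1 CPM in input and 51.7, 64.6 and 74.99 in the RIP (0.80 ± 0.18). AXIN2, a feedback inhibitor of the pathway, rose by 0.66 and CTNNB1, beta-catenin itself, by 0.66. The nuclear partners LEF1 (-0.19), TCF7 (0.10) and TCF7L2 (0.01) were not called.

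Counts of these higher lists depended on single libraries. Transcription coregulators had between 4 and 20 members called with a library left out, fewest without RIP replicate 3. KMT2 and SETD genes had between 5 and 12, and SWI/SNF and CHD genes between 2 and 12. KDM genes had between 4 and 11 and Wnt genes between 4 and 14. The fewest KMT2 and SETD calls came without input replicate 3, and the fewest for the other 3 lists without input replicate 1. No member of the 5 lists was called higher with scaling to mitochondrial mRNAs, although the medians of all 5 stayed above 0 under it.

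Argonaute and TNRC6 genes, the core of microRNA silencing, had 5 of 7 members higher (71.4%) with a median of 0.67. Of abundant protein-coding genes, 21.5% were higher. AGO4 had 35.2, 33.0 and 29.3 CPM in input and 72.9, 55.9 and 53.1 in the RIP (0.90 ± 0.15), and AGO2, the slicing Argonaute, had 198, 183 and 194 CPM in input and 286, 299 and 335 in the RIP (0.68 ± 0.12). TNRC6B, a GW182 protein that links Argonaute to CCR4-NOT, had 180.3, 186 and 192 CPM in input and 292, 293 and 306 in the RIP (0.67 ± 0.13). The groups of all 3 genes were separate, and 4 or 5 members were called in each fit with a library left out. AGO3 had 0.01.

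Of 19 genes of the CCR4-NOT and PAN complexes, which shorten poly(A) tails, 4 were higher (21.1%) and 3 lower (15.8%), close to the 21.5% and 15.1% of abundant protein-coding genes, with a median of -0.15 that was 0.06 with total-count scaling. CNOT1, the scaffold that YTHDF2 binds, had 562, 546 and 557 CPM in input and 791, 787 and 881 in the RIP (0.56 ± 0.16, adjusted p = 0.00887). CNOT6, a catalytic subunit, rose by 0.68, whereas CNOT7, the other kind of catalytic subunit, fell from 73.2, 64.0 and 84.9 to 39.9, 40.9 and 43.3 CPM (-0.84 ± 0.15). With a library left out, 1 to 4 were higher and 3 lower, the call of CNOT1 was lost in 4 fits and that of CNOT6 in 3. PAN2 rose by 0.62 in the fit without a block, with adjusted p = 0.0373, and had adjusted p = 0.0754 with the replicate block.

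Of 21 decapping and P-body genes, 7 were higher (33.3%) and 5 lower (23.8%), beside 21.5% and 15.1% of abundant protein-coding genes. Their median was -0.05, which was 0.15 with total-count scaling. With a library left out, 2 to 7 were higher and 4 to 5 lower, with the fewest higher, 2, without RIP replicate 3. The 5 that fell were all LSM genes, whose products form the ring that binds shortened mRNA. LSM2 changed by -1.49 and LSM7 by -1.42. UPF1, the helicase of nonsense-mediated decay, rose from 154, 169.9 and 133 to 264, 253 and 293 CPM (0.83 ± 0.14), EDC3, an enhancer of decapping, by 0.64 (adjusted p = 0.06 without RIP replicate 3), and the decapping enzyme DCP2 by 0.56.

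Of 9 genes of m6A writers, 3 rose (33.3%, against 21.5% of abundant protein-coding genes) and none fell, with a median of 0.33. With a library left out 1 to 4 were higher, fewest without input replicate 3, and the call of RBM15B was lost in 5 of 6 fits. METTL16, which methylates U6 and MAT2A RNA, had 106, 109 and 107 CPM in input and 134, 178 and 207 in the RIP (0.68 ± 0.16), and RBM15, an adaptor that guides the writer, had 131, 133 and 110.4 CPM in input and 189.6, 173 and 178 in the RIP (0.53 ± 0.13). METTL3, the catalytic subunit, had 76.6, 75.5 and 74.0 CPM in input and 55.5, 56.6 and 63.1 in the RIP. All its RIP values lay below all input values, but the change of -0.37 ± 0.14 did not pass the test (adjusted p = 0.0711). METTL14 had -0.24 ± 0.14 (adjusted p = 0.275).

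Among 15 erasers and readers, the 2 called were YTHDF2 and YTHDF3, both higher (13.3%, below the 21.5% of abundant protein-coding genes). YTHDF2, the precipitated protein's own message, had 191, 197 and 204 CPM in input and 223, 289 and 391.7 in the RIP (0.61 ± 0.18, adjusted p = 0.0121). The RIP values lay above the input values but spread widely, with replicate 1 the lowest. The call was lost in 4 of the 6 fits with a library left out, where the change ranged from 0.34 to 0.80. YTHDF3, which the fusion carries, had 123, 108 and 137 CPM in input and 151, 162 and 218 in the RIP (0.53 ± 0.17, adjusted p = 0.0205), and its call was likewise lost in 4 fits. YTHDF1 had 88.4, 98.5 and 94.9 CPM in input and 86.7, 111 and 134 in the RIP (0.24 ± 0.18, adjusted p = 0.431), and those groups overlapped. ADAR, the gene of ADAR1, rose by 0.50 ± 0.15 (adjusted p = 0.0206), a call lost in 5 of the fits.

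Messages widely described as m6A-modified had 8 of 29 members higher and none lower, with a median of 0.33, against 8.98% of all genes and 21.5% of abundant protein-coding genes. AHNAK, which codes for a giant scaffold protein, had 130.2, 146 and 118 CPM in input and 269, 264 and 323 in the RIP (1.12 ± 0.18, adjusted p = 2.61e-05). BCL2, the inhibitor of apoptosis, had 15.0, 14.7 and 13.5 CPM in input and 28.7, 24.8 and 24.8 in the RIP (0.85 ± 0.13), and EGFR, the growth factor receptor, had 38.7, 40.5 and 34.4 CPM in input and 63.1, 51.4 and 50.8 in the RIP (0.54 ± 0.15). JUN, an AP-1 subunit, had 356, 348 and 282 CPM in input and 513, 472 and 449.9 in the RIP (0.54 ± 0.19, adjusted p = 0.0397), a call lost in all 6 fits with a library left out. MYC (0.22 ± 0.17, adjusted p = 0.438) and SON (0.41 ± 0.20, adjusted p = 0.172), a large splicing cofactor, were not called. Between 3 and 9 members of the list were called higher with a library left out, fewest without input replicate 1.

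A list of long noncoding RNAs, most of them nuclear, gave no common direction. Of 12 tested, 2 were higher (16.7%) and 1 lower (8.33%), beside 8.98% and 9.93% of all genes. TUG1 (0.46) was called higher but lost its call in all 6 fits with a library left out. NORAD, a member that acts in the cytoplasm, where it sequesters Pumilio proteins, had 205, 187 and 202 CPM in input and 335, 316 and 350.5 in the RIP (0.76 ± 0.15). HOTAIR fell from 11.2, 12.7 and 13.2 to 8.37, 6.63 and 8.98 CPM (-0.63 ± 0.17). MALAT1 had 1319, 1137 and 874 CPM in input and 1807, 1407 and 659 in the RIP, and NEAT1, the scaffold of paraspeckles, had 81.5, 65.7 and 99.1 CPM in input and 204, 121 and 126 in the RIP. The spread of MALAT1 was wide in both groups and neither gene passed the test (adjusted p = 0.805 and 0.0992).

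Zinc finger genes named ZNF had 83 of 426 members higher (19.5%), 23 lower (5.40%) and a median of 0.14, which was -0.07 with mitochondrial scaling. For this and the next lists, the shares higher and lower were 8.98% and 9.93% over all genes. Over abundant protein-coding genes they were 21.5% and 15.1%. ZNF740 had 67.0, 69.2 and 62.2 CPM in input and 120.0, 116 and 115 in the RIP (0.82 ± 0.10). With a library left out, 25 to 81 were higher and 11 to 20 lower, fewest in both directions without input replicate 3. FOX factors had 6 of 39 higher (15.4%) and 1 lower (2.56%), with 3 to 6 higher when a library was left out, fewest without RIP replicate 3. FOXK1 had 276, 294 and 240.2 CPM in input and 460.0, 464 and 451 in the RIP (0.76 ± 0.17), while FOXN2 changed by -0.68. KLF factors had 3 of 15 higher (20%), of which KLF13 had 47.2, 49.2 and 42.3 CPM in input and 79.0, 89.4 and 93.8 in the RIP (0.92 ± 0.15). KLF10 (0.92 ± 0.31) lost its call in 5 of 6 fits with a library left out and with the replicate block. SOX factors had 1 of 15 higher, SOX4 (0.56 ± 0.17), a share below the 8.98% of all genes, and its call was lost in 5 of 6 fits with a library left out (adjusted p up to 0.185). Of 38 HOX genes none was higher and 3 were lower (7.89%, near the 9.93% of all genes), HOXB2 (-0.75), HOXC4 (-0.54) and HOXC10 (-0.53). With total-count scaling 9 HOX genes were higher and 1 lower, and the median moved from -0.07 to 0.13. With a library left out 0 to 2 were higher and 1 to 4 lower, and HOXC10 lost its call in 4 of the 6 fits.

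Enrichment differed with the length of the gene's exons. Abundant protein-coding genes called higher had a median summed exon length of 7640 bases, those called lower 3540.5 and all 9273 together 5659. Split into 5 classes of nearly equal size by length, the median change was -0.30 in the shortest class and -0.02, 0.12, 0.20 and 0.32 in the longer ones. The shortest class, up to 3253 bases, had 7.01% of its genes higher and 34.7% lower. The longest, from 9130 bases, had 39.1% higher and 5.18% lower. Each of the 3 RIP replicates gave the same order of classes, with medians of -0.36 to -0.26 in the shortest class and 0.26 to 0.37 in the longest. The length counts every annotated exon of a gene and can be longer than any 1 of its mRNAs. Length moves with several lists named here, since the median was 3130 bases for tested cytosolic ribosomal protein genes, 2324 for oxidative phosphorylation genes, 10009 for coregulators and 13890 for Argonaute and TNRC6 genes. Its part in their changes was not tested.

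**Figure D3:**
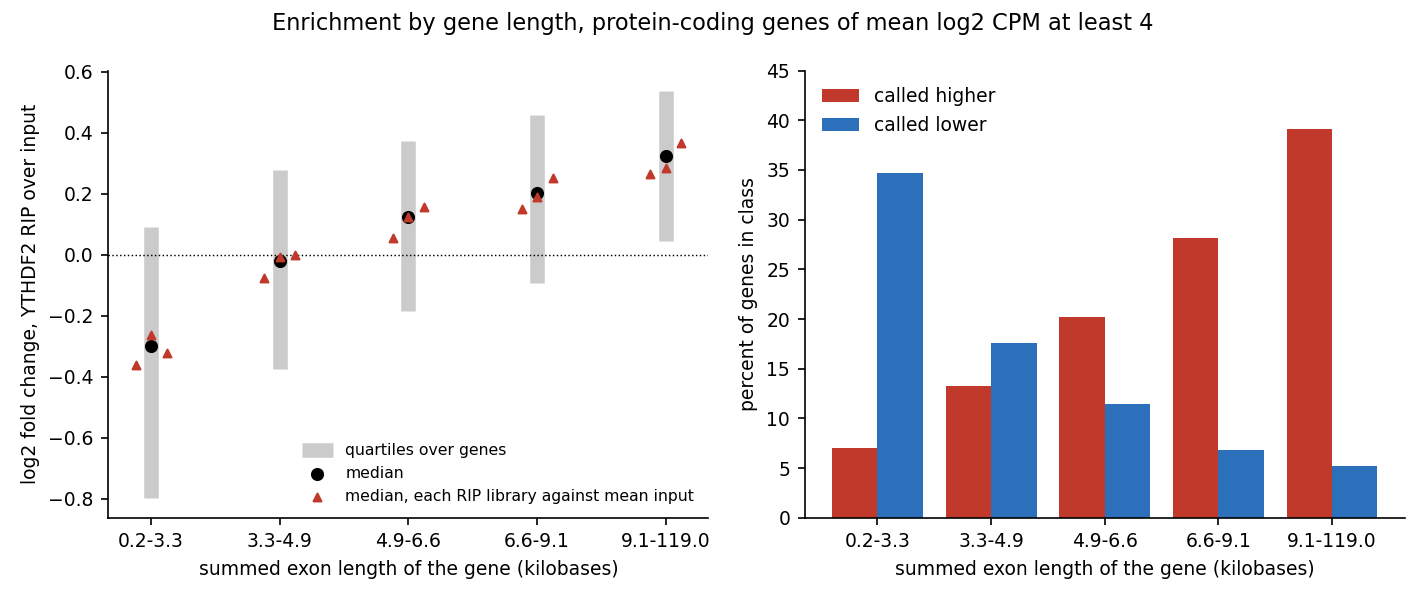
Abundant protein-coding genes in 5 classes of summed exon length in kilobases (x axis), with the median log2 of YTHDF2 RIP over input as a black point, quartiles over genes as a grey bar and a triangle for each RIP library against the mean input at left, and the percent called higher and lower at right. The medians run from -0.30 in the shortest class to 0.32 in the longest, and the 3 replicates lie close together in every class.

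YTHDF2 RIP was then compared directly with YTHDF3 RIP from the same cells, since both share the inputs. Here 4701 of 31849 genes were called (14.8%), 2871 higher in the YTHDF2 RIP (9.01%) and 1830 lower (5.75%). Leaving out YTHDF3 RIP replicate 2 left 2264 calls and leaving out YTHDF2 RIP replicate 3 left 3088. The share of called genes that were higher was 61.1% with edgeR and TMM, 55.9% with total-count scaling, 51.2% with DESeq2's size factors in edgeR and 49.9% with DESeq2. With scaling to mitochondrial mRNAs, 99 genes were called and 90 of them were lower, so the balance of directions is not fixed by these data.

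Relative to YTHDF3 RIP, the YTHDF2 RIP kept more of the short housekeeping messages. Of 87 cytosolic ribosomal protein genes, 42 were higher and none lower, and of 81 oxidative phosphorylation genes 45 were higher and none lower. Mitochondrial ribosomal proteins had 35 of 78 higher and 1 lower, histones 32 of 56 and none, and proteasome subunits 18 of 35 and 2. YTHDF3 RIP against the same inputs called 29.6% of genes (13.5% higher, 16.1% lower). Against input, the median of cytosolic ribosomal protein genes was -1.34 in YTHDF2 RIP and -2.10 in YTHDF3 RIP, and that of oxidative phosphorylation genes was -1.30 and -1.89. Coregulators went the other way, with 1 of 31 higher and 9 lower, as did KMT2 and SETD genes, with 2 of 29 higher and 9 lower. Their medians against input were 0.45 and 0.35 in YTHDF2 RIP and 0.77 and 0.68 in YTHDF3 RIP. By length class, the median difference between the RIPs ran from 0.52 in the shortest class through 0.21, 0.05 and -0.08 to -0.24 in the longest.

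By the rule for named genes, the 5 highest were copies of 5.8S rRNA, at 40.7 to 82.6 CPM in YTHDF2 RIP and 3.26 to 12.3 in YTHDF3 RIP, with input spread over 34.1 to 279.9 CPM. The 5 lowest were copies of U1, with values of -2.64 to -2.54. Both sets share reads among copies, so they are not separate measurements. The protein-coding genes given next were chosen after their values were seen.

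ATP5MG, the g subunit of ATP synthase, had 64.6, 76.7 and 91.5 CPM in YTHDF2 RIP and 9.23, 10.2 and 15.3 in YTHDF3 RIP, a difference of 2.74 ± 0.26 (adjusted p = 2.08e-08). Its input of 68.8, 54.0 and 80.3 CPM was near the YTHDF2 RIP level (0.20 ± 0.25, adjusted p = 0.654), and those groups overlapped. ATP6V0B, a subunit of the vacuolar proton pump, differed by 2.39 ± 0.21, with 68.5, 103 and 123 CPM in YTHDF2 RIP and 22.02, 15.3 and 18.6 in YTHDF3 RIP. SEC11A, the signal peptidase catalytic subunit, had a mean of 88.4 ± 5.9 (SD, n = 3) CPM in input, 136, 139 and 146 in YTHDF2 RIP and 21.4, 26.0 and 43.5 in YTHDF3 RIP (2.21 ± 0.24 between the RIPs). Of the 8 highest genes it was the one called higher than input in YTHDF2 RIP (0.67 ± 0.23, adjusted p = 0.0378). The tetraspanin CD63 (2.14), the proteasome assembly chaperone PSMG3 (2.17), the spliceosomal SNRPE (2.09) and the histone genes H4C2 (2.20) and H4C8 (2.16) completed the 8 highest.

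UCP2, the mitochondrial uncoupling protein 2, had the reverse pattern. It had 76.9, 77.3 and 80.4 CPM in input, 33.9, 43.8 and 37.1 in YTHDF2 RIP and 231, 214 and 170.4 in YTHDF3 RIP, a difference between the RIPs of -2.42 ± 0.20 (adjusted p = 8.34e-10). It fell against input in YTHDF2 RIP (-1.03 ± 0.20) while its YTHDF3 RIP values were all above input. AP1S3, a clathrin adaptor subunit with 32.3% of its exons overlapped, had 9.58, 12.6 and 13.6 CPM in YTHDF2 RIP and 58.4, 57.1 and 41.9 in YTHDF3 RIP (-2.14 ± 0.17). USB1, the U6 RNA exonuclease, had 24.3, 42.8 and 41.7 CPM in YTHDF2 RIP and 200.1, 164 and 123 in YTHDF3 RIP (-2.16 ± 0.23). The protease gene PRSS16 (-2.27), the nuclear receptor ESRRG (-2.16), PARP11 (-2.05), the kidney progenitor factor SIX2 (-1.92) and the kinase inhibitor CAMK2N1 (-1.76) followed.

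**Figure D4:**
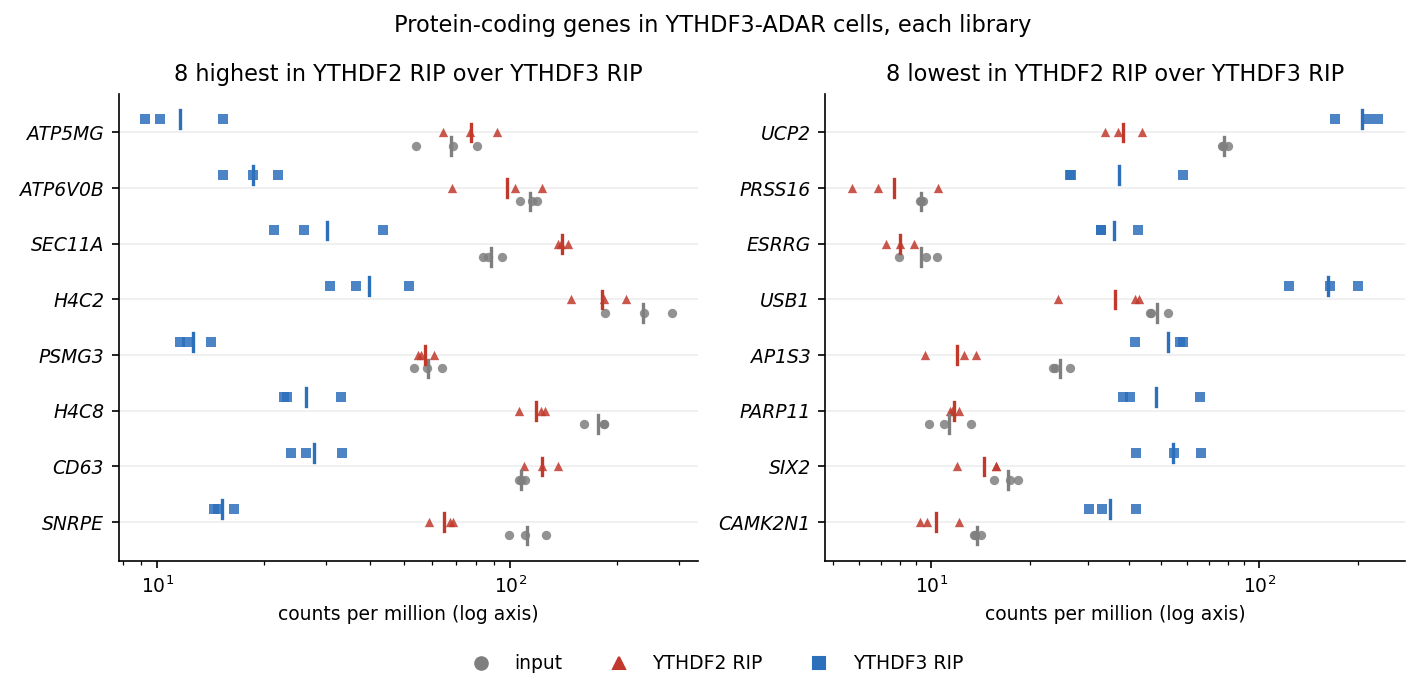
TMM-scaled CPM on a log axis for called protein-coding genes of mean log2 CPM at least 4 with the largest difference between YTHDF2 RIP and YTHDF3 RIP. Each point is 1 library of input, YTHDF2 RIP or YTHDF3 RIP of YTHDF3-ADAR cells, with a short line at each mean. ATP5MG keeps its input level in YTHDF2 RIP and drops in YTHDF3 RIP, and UCP2 lies below input in YTHDF2 RIP and above it in YTHDF3 RIP.

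With low counts filtered, no gene passed a test of whether its enrichment differed between lines. The change in YTHDF2 RIP over input, each with its own inputs, was compared between YTHDF3-ADAR cells and the other lines by an interaction term in edgeR. Against YTHDF2-ADAR cells 0 of 31849 genes were called, with 642 at an unadjusted p under 0.05 (2.02%) and 0 called by DESeq2. Against YTHDF1-ADAR cells 0 were called as well, with 1598 at an unadjusted p under 0.05 (5.02%) and 0 by DESeq2. With no filter on low counts 5 and 82 genes were called. The median standard error of a difference was 0.42 on the log2 scale for either line, so a difference of that size was not detectable for a typical gene.

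Over the 10193 genes with a mean log2 CPM of at least 4, the Pearson correlation of enrichment with that in YTHDF2-ADAR cells was 0.959 across genes, which are not independent replicates (Spearman 0.938). With YTHDF1-ADAR cells it was 0.917 (Spearman 0.906). Of the 3700 genes called here in this set (36.3%), 3700 had the same sign in YTHDF2-ADAR cells and 3169 were called the same way, and 3686 and 3163 did in YTHDF1-ADAR cells. The median absolute difference was 0.11 with YTHDF2-ADAR and 0.19 with YTHDF1-ADAR cells. Over all genes 20.3% were called in YTHDF2-ADAR cells (10.2% higher, 10.1% lower) and 24.1% in YTHDF1-ADAR cells (8.66% higher, 15.4% lower). The 12 protein-coding genes named for their increase ranged from 0.86 to 1.75 in YTHDF2-ADAR cells, all called. In YTHDF1-ADAR cells they ranged from 0.01 to 2.12, 10 called. The 12 named for their decrease ranged from -2.99 to -2.19 and from -3.77 to -2.47, all called. Cytosolic ribosomal protein genes had medians of -1.34, -1.44 and -1.77 in YTHDF3-ADAR, YTHDF2-ADAR and YTHDF1-ADAR cells, and coregulators 0.45, 0.42 and 0.45.

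**Figure D5:**
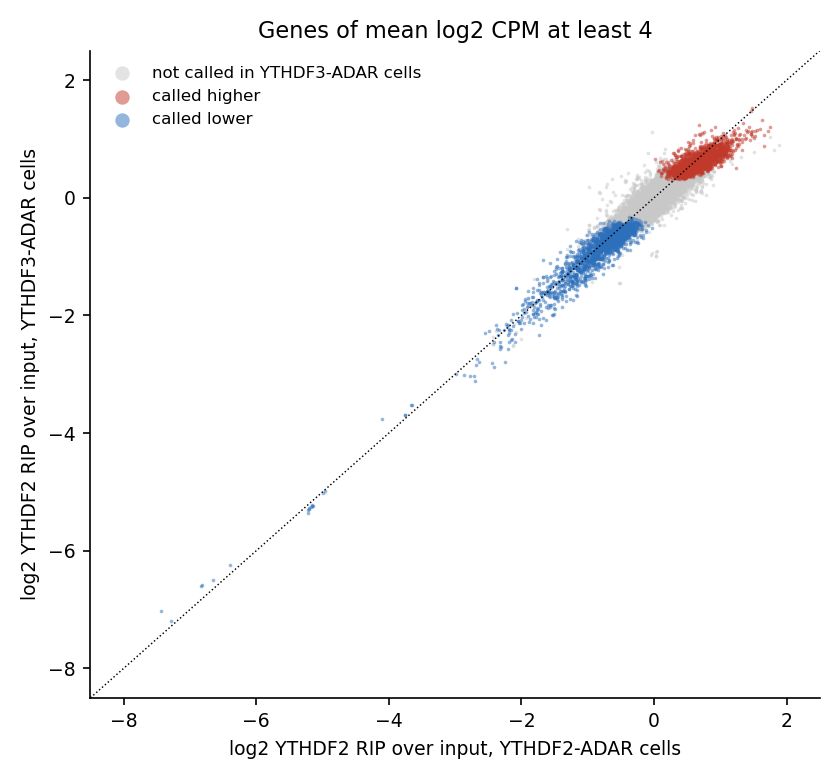
Log2 of YTHDF2 RIP over input in YTHDF3-ADAR cells (y axis) against the same in YTHDF2-ADAR cells (x axis), 1 point per gene of mean log2 CPM at least 4, with genes called in YTHDF3-ADAR cells coloured and a dotted line where both are equal. The points lie along that line, with a Pearson correlation of 0.959 over 10193 genes.

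Edited sites were set beside the enrichment, from the authors' deposited table of edited sites in this line, which pools replicates. No library comes from cells without a fusion, so edits by YTHDF3-ADAR and by native ADAR enzymes cannot be told apart here. The table has 2944 genes, of which 2933 matched a tested gene by symbol. Classes of genes were called and changed by over 0.5 on the log2 scale, either way, or neither. Among abundant protein-coding genes, 33.7% of the 1431 higher genes had an edited site in the authors' deposited table (95% Wilson interval 31.3 to 36.2%), 18.5% of the 1278 lower genes (16.5 to 20.8%) and 28.8% of the 6564 others, against 28.2% of all 9273. The interval covers counting over genes only. Abundant protein-coding genes called higher had a median summed exon length of 7640 bases and those called lower 3540.5. The part of length and of read depth in these shares was not tested.

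Editing levels were then compared between RIP and input. In the authors' deposited table the median level over genes was 1.12% in input and 1.08% in YTHDF2 RIP for the higher class, and 1.25% and 0.94% for the lower class. Of the genes with levels, 89 had no YTHDF1 RIP value, and for none of the 74 of these with levels above 0 did the levels match the odds ratio in the same table, so their levels are uncertain. Editing was higher in the RIP than in input for 48.1% of 478 higher genes whose levels differed (43.7 to 52.6%) and for 42.2% of 249 lower genes (36.2 to 48.4%). Without the 89 genes the shares were 47.5% of 467 and 43.6% of 241. With at least 3 edited sites the shares were 58.9% of 124 and 57.7% of 71. For editing in YTHDF2 RIP against input, the adjusted p in the authors' deposited table was below 0.05 for only 3 genes. ARID4B, a chromatin-binding protein, went from 10.98% to 3.38% edited, CD5, a lymphocyte receptor gene, from 4.93% to 8.49%, and RNF216, a ubiquitin ligase, from 0.67% to 3.09% in the authors' deposited table. None of the 3 was called in RNA abundance between RIP and input, and CD5 had at most 0.16 CPM in any of the 6 libraries.

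The genes with most edited sites were not among those the authors' test called. In the authors' deposited table THOC5, a subunit of the THO export complex, had 100 sites with 4.89% in input and 5.198% in the RIP. ALYREF, an mRNA export adaptor, had 92 sites with 8.10% and 9.12%, and the export receptor XPO1 had 61 sites with 10.1% and 7.52%. None of the 3 was called in abundance (0.10, 0.10 and -0.04). ENSA, a phosphatase inhibitor, had 76 sites with 6.71% and 8.32%, while its RNA fell in the RIP (-0.69 ± 0.18, adjusted p = 0.00547). ADARB1 stood apart in the authors' deposited table, with 95.1% in input and 95.7% in the RIP over 6 sites.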

How the data were processed

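The authors' deposited count table gives whole read counts per gene for all 36 libraries. Per the labels' protocols and the submitters' processing notes, reads from rRNA-depleted directional libraries were aligned with STAR 2.7.7 to GRCh38 and counted with featureCounts 2.0.1 without strand, with reads shared among overlapping genes and multiple alignments counted. Copies and overlapping genes therefore share reads. The authors' deposited DESeq2 table, of log2 fold changes and adjusted p-values, was used only for gene symbols, since the libraries behind each comparison are not given in the sources used here. The authors' deposited editing table gives per gene a number of sites, a score for each pooled arm, a natural log odds ratio and its adjusted p-value. Score divided by sites was taken as the editing level, and the odds ratio recomputed from it matched the authors' natural log value within 1e-06 for 2264 of 2264 genes with a value in every arm and a level above 0 in input and YTHDF2 RIP. It matched for 0 of 74 such genes with no YTHDF1 RIP value. Genes with a level of 0 in input or YTHDF2 RIP stayed in the editing classes, and the match was not checked for them. Read depth behind the editing levels is unknown.

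From the counts, a model of 12 groups over the 36 libraries was fitted with edgeR 4.0.16 (TMM, filterByExpr, robust quasi-likelihood test, R 4.3.3), with Benjamini-Hochberg adjustment and a threshold of 0.05. Standard errors were taken from the log2 change and the F statistic. The rat Apobec1 row was left out, and 18581 genes had no symbol. Alternatives were DESeq2 1.42.0, other scalings, no filter, only the groups compared, a replicate block and leaving out each library. Replicate numbers pair libraries only in the fit with a block, and the main fit has none. Same-numbered input and YTHDF2 RIP libraries of this line deviated together (correlations of 0.171, 0.173 and 0.324). The same correlations were -0.291, 0.221 and -0.118 in YTHDF1-ADAR cells and 0.047, 0.085 and 0.454 in YTHDF2-ADAR cells. Same-numbered YTHDF2 and YTHDF3 RIP libraries of this line did not deviate together (-0.662, 0.028 and -0.658). Differently numbered ones ranged from -0.351 to 0.715, highest between YTHDF2 RIP replicate 1 and YTHDF3 RIP replicate 3. Named genes were the 12 protein-coding, 4 other and 5 most abundant genes per side, 2 to 4 members per list with smallest p, a fixed set of readers, writers and controls, and, added later, single members that show a list's range, the genes with most edited sites and 8 protein-coding genes per side between RIPs. The 12, the 4 and the genes between RIPs were taken from called genes with a mean log2 CPM of at least 4. The 12 and the 4 also had groups that did not overlap. The comparison, its gene lists and its genes were chosen with earlier results of these data known. The fit was also run on simulated counts with known changes in 1 group. Every gene had the same spread there and libraries otherwise differed only in size, so that run cannot show how the calls hold in these data.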

Additional observations from a re-analysis of the deposited data

How the results depend on the processing

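Of 6022 genes called in YTHDF2 RIP against input, the count was 715 with scaling to mitochondrial mRNAs and 3343 to 5664 with 1 library left out. It was 5666 with the replicate number as a block, and among named genes the block changed the calls of KLF10 (adjusted p = 0.0581), MRPL14, MT-TH and PAN2 and no other. DESeq2 called 6659, no filter 5800 and only the groups compared 7927. Against YTHDF3 RIP, the 4701 calls became 99 with mitochondrial scaling and 2264 to 4285 with a library left out. The tests between lines called 5 and 82 genes with no filter and 0 to 1 with a library left out, for either line. Over all genes tested, the longest minus the shortest length class was 0.36, against 0.59 at a mean log2 CPM of at least 4 and 0.41 with total-count scaling. The share with higher editing in the RIP was 58.9% (higher class) and 57.7% (lower class) with at least 3 sites, and 38.9% (higher class) past a log2 change of 1, while leaving out genes with no YTHDF1 RIP value, an alternative chosen after seeing the data, gave 47.5% and 43.6%. MALAT1 was -0.074 without RIP replicate 1 and 0.50 without RIP replicate 3. The cause was not tested in any of these. Few changes above 2-fold upward and 3 libraries per group limit what single genes can show.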

Other observations

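Of 35 S phase genes, 8 were higher in YTHDF2 RIP than in input (22.9%) and 7 were lower (20%), beside 21.5% and 15.1% of abundant protein-coding genes, with 2 to 7 and 5 to 8 called when a library was left out. FEN1, the flap endonuclease of lagging-strand synthesis, had 0.82, and the replicative helicase subunits MCM2 and MCM6 had 0.70 and 0.66. PCNA, the sliding clamp, had -0.996, and the origin subunit ORC6 had -0.87. Of 29 G2/M genes, 7 were lower (24.1%) and 1 was higher (3.45%), with 5 to 8 lower when a library was left out. CDK1, the mitotic kinase, had 66.1, 58.8 and 70.0 CPM in input and 30.2, 22.7 and 23.5 in the RIP (-1.35 ± 0.20), and cyclin CCNB2 had 32.4, 33.0 and 39.2 CPM in input and 18.7, 18.3 and 17.4 in the RIP (-0.94 ± 0.19).

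The BCL2 family had 5 of 21 genes higher and 5 lower (23.8% each, beside the same 21.5% and 15.1%), and 1 to 3 higher when a library was left out. BMF, which promotes apoptosis, had 13.1, 17.1 and 13.6 CPM in input and 32.5, 26.8 and 27.8 in the RIP (0.99 ± 0.28, adjusted p = 0.00957). BNIP3, of mitochondrial autophagy, had 37.7, 38.1 and 38.2 CPM in input and 20.3, 19.2 and 17.5 in the RIP (-0.997 ± 0.14). The 18 interferon-stimulated genes tested, the 8 TRiC chaperonin subunits and the 49 clustered protocadherins had no call in either direction in edgeR.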
